A study of Mus musculus with 35 samples.

Results

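The comparison of 2 days of cold exposure with room temperature was drawn from a time course of whole-tissue RNA in mouse interscapular brown adipose tissue (iBAT), the fat pad between the shoulder blades. Its members are the 5 libraries from mice kept in the cold for 2 days and the 5 libraries from room temperature controls, 10 of the 35 libraries in the series, and all 55421 genes of the count table. All 10 mice were male C57BL/6J, 9 to 10 weeks old and fed chow. The controls stayed at the colony temperature of 24 °C. The cold mice were moved to an incubator at 6 °C, where each lived alone in a static cage without nesting material, so that cold cannot be told apart from isolation and loss of the nest. Each library came from one trimmed pad of one mouse and was prepared with a 3′ end kit. Expression is given below as CPM (counts of a gene per 1e+06 counts of the library), scaled by the trimmed mean of M values (TMM), and levels of different genes are not compared. The log2 fold changes, with their standard errors (SE), and the adjusted p-values come from edgeR's quasi-likelihood test with Benjamini-Hochberg adjustment over all genes tested (n = 5 mice per group), and a gene is called higher or lower when the adjusted p is below 0.05.

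Brown adipocytes make heat by oxidizing fatty acids and glucose in mitochondria whose proton gradient is dissipated by uncoupling protein 1. Cold is relayed to the tissue by sympathetic nerves, whose noradrenaline raises cAMP in the adipocytes through β-adrenergic receptors. Over days in the cold the tissue also grows, through division of stromal precursors and the arrival of immune cells.

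After 2 days of cold, 10629 genes had enough counts to be tested, of which 1748 were higher and 1565 lower than at room temperature (31.2% called in either direction, 16.4% higher and 14.7% lower). The counts of called members in the lists below are to be read beside these shares. All 5 cold mice lay above all 5 controls for 1190 genes (11.2%) and below them for 956 genes (8.99%). A change of at least 1 on the log2 scale was reached by 523 of the higher genes, and a change of at most -1 by 492 of the lower genes. Of the called genes, 2336 (70.5%) were called in each of the 10 fits that left out 1 mouse. Scaling by library size alone moved the median log2 fold change of all genes tested from -0.02 to -0.24 and the calls to 931 higher and 2776 lower, 25.1% higher instead of 52.8%, so small changes in either direction depend on the scaling. With whole tissue, fewer cells of a type and less RNA per cell cannot be told apart.

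One cold library stood apart. The first principal component (47.9% of the variance of log2 CPM) separated the groups, whereas the second (13%) ordered the cold mice, with mouse 1 at 37.8, mouse 2 at 15.2 and the others between -29.5 and -9.61. Cold mouse 1 also had the lowest mitochondrial share of counts of the 10 libraries, 34.6% against 38.0% to 43.4% in the others, and the lowest sample weight when weights were estimated, 0.41 against 0.87 to 1.77. Without it, 1760 genes were higher (16.3%) and 1625 lower (15%), and 2957 of the original calls were kept. The depth was 3913519 to 6031117 counts per library, at which a gene at 1 CPM rests on only a few reads. Gm42418, a gene that takes in reads of ribosomal RNA, held 11.7% to 15.8% of the counts in the cold mice and 8.92% to 11.3% in the controls. Leaving it and the mitochondrial genes out of the fit gave 1715 higher and 1597 lower genes.

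The sequences printed here are 3 promoter windows that hold a known motif and 2 mitochondrial tRNAs, all of genes whose values are given below. The promoter windows are RefSeq sequences of build GRCm38.p6, 5′ to 3′ on the strand of the gene, and each lies within the 250 bases before the RefSeq start, which for Dio2 is upstream of the gene start annotated for the counts. Capitals mark TGACGTCA, the palindromic cAMP response element, upstream of Dio2, TCACCCCAC, a match to the sterol regulatory element TCACNCCAC, upstream of Hmgcs1, and both copies of TTATGTAA, a D-box, upstream of Per3.
Dio2 promoter, chr12:90739080-90739179, minus strand: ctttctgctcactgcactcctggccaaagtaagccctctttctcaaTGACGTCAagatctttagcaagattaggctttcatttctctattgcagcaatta
Hmgcs1 promoter, chr13:119690168-119690267, plus strand: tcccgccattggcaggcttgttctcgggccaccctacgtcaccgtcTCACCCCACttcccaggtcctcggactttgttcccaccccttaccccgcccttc
Per3 promoter, chr4:151044794-151044893, minus strand: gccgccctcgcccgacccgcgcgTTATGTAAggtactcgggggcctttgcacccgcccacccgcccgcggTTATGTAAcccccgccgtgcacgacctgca
The tRNA sequences are the annotated transcripts on GRCm38, with no base singled out.
mt-Tc, chrM:5192-5257, minus strand: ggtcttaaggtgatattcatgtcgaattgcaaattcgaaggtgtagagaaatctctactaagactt
mt-Tl1, chrM:2676-2750, plus strand: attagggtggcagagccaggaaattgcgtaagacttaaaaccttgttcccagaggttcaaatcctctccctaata
Searched on both strands in the 250 bases before the start, the cAMP response element was found in 1.55% of 32851 promoters, the sterol element in 1.05% and the D-box in 0.819%. Among the list members with a promoter in that table, Dio2 was the only holder of the cAMP response element in the 18 of the thermogenic list, Hmgcs1 the only holder of the sterol element in the 17 of the cholesterol list, and Per3 the only holder of the D-box in the 10 of the list of clock repressors and outputs. A match is a string of letters and not evidence of binding.

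The 10 largest changes in each direction were taken among called genes with a mean of at least 50 counts over the 10 libraries, no overlap between the groups and a call in every fit without 1 mouse, so their lack of overlap is fixed by that choice. Several of the largest rises encode enzymes and carriers of lipid and energy metabolism. Bdh1 (chr16:31422280-31458901, plus strand), the mitochondrial β-hydroxybutyrate dehydrogenase, was read 0 to 2 times in each control library and stood at 43.1, 63.2, 70.6, 20.3 and 43.7 CPM in the cold mice. Its fitted log2 fold change of 8.10 (SE 0.49, adjusted p = 2.60e-08) leans on those few control reads. Mfsd2a, a transporter of lysophospholipids carrying long-chain fatty acids, was likewise nearly absent in the controls, at most 0.762 CPM, and reached 14.8 to 48.9 CPM in the cold. Elovl3 (chr19:46131897-46135694, plus strand), an elongase of very long chain fatty acids, was at 13.2, 5.15, 5.68, 4.24 and 0.719 CPM in the controls and 340.4, 488, 551, 303 and 559.6 CPM in the cold mice. The ranges were far apart for all of these genes, and Elovl3 changed by 6.27 (SE 0.40, adjusted p = 4.63e-08). The other nuclear genes among the 10 largest rises were Cpne5, a calcium-dependent phospholipid-binding protein (log2 fold change 5.56), Gmpr, which converts GMP to IMP (4.23), the tight junction protein Cldn1 (4.14) and Dio2.

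Among the 10 largest falls, Car3 (chr3:14863512-14872523, plus strand), a carbonic anhydrase abundant in adipocytes, went from 5717, 6311, 6270, 6374 and 6093 CPM in the controls to 439, 435, 226, 583 and 398 CPM in the cold mice. Every cold mouse was far below every control, mouse 4 being the highest of the cold group, and the change was -3.90 (SE 0.21, adjusted p = 1.16e-08). Ntrk3, the receptor of neurotrophin-3, was at 151, 106, 196, 179.8 and 155 CPM in the controls and 1.97, 4.45, 6.63, 34.9 and 21.4 CPM in the cold. Every cold mouse was well below every control, with the highest cold values in mice 4 and 5 (log2 fold change -3.60, SE 0.49, adjusted p = 4.94e-05). The lactate receptor Hcar1 fell by 3.40 on the log2 scale, Impdh1, which acts on IMP on the way to GMP, by 3.03, the monocarboxylate carrier Slc16a7 by 2.73, the interleukin-17 receptor subunit Il17re by 2.70 and the medium-chain acyl-CoA synthetase Acsm3 by 2.45. The remaining 3, Dbp, Per3 and Nnat, are described with the clock and adipocyte genes.

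**Figure D1:**
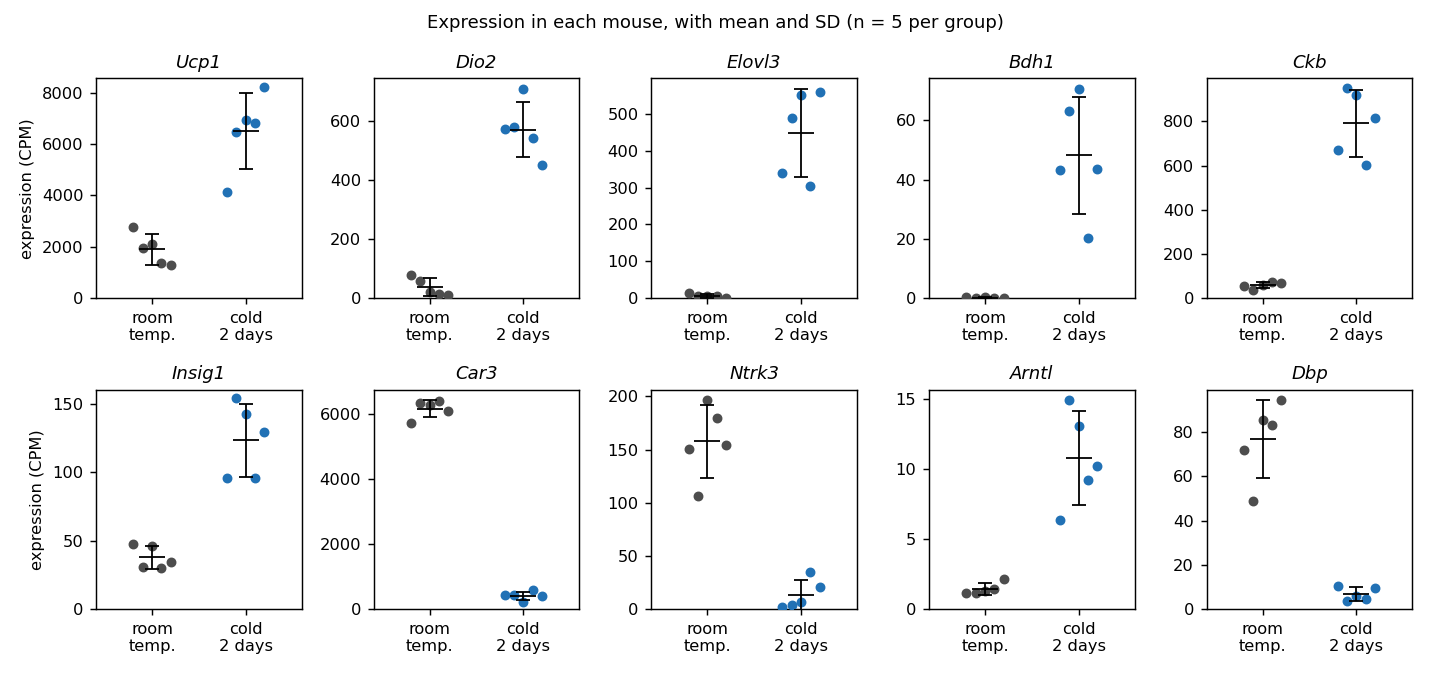
Expression in CPM (vertical axes, starting at 0) of 10 genes in the 5 room temperature mice (grey) and the 5 mice after 2 days of cold (blue). Points are mice, from mouse 1 on the left to mouse 5 on the right, and bars are the mean and SD. In each of the 10 panels the groups do not overlap, with Ucp1, Dio2, Elovl3, Bdh1, Ckb, Insig1 and Arntl higher and Car3, Ntrk3 and Dbp lower in the cold.

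Several genes of heat production were higher. Of 22 tested genes of a list of thermogenic and cAMP-induced genes, 11 were higher and 2 lower, and the median log2 fold change was 0.57 against -0.02 for all genes. Ucp1, the uncoupling protein itself, was at 2771, 1941, 2115, 1386 and 1274 CPM in the controls and 4126, 6458, 6953, 6837 and 8218 CPM in the cold mice. Cold mouse 1 had the lowest value of the cold group but still exceeded every control, and the change was 1.77 (SE 0.22, adjusted p = 1.89e-05). Dio2, the deiodinase that activates thyroid hormone and has the promoter window with a cAMP response element printed above, was at 79.9, 56.6, 21.4, 13.4 and 10.2 CPM in the controls and 575, 579.9, 710.1, 544 and 451 CPM in the cold. Every cold mouse was above every control, and relative to their means the controls spread more widely than the cold mice (log2 fold change 3.97, SE 0.44, adjusted p = 8.06e-06). Ppargc1a, a coactivator of mitochondrial genes, changed by 2.09 (SE 0.27), the glycerol kinase Gk by 2.02 (SE 0.26), and Letmd1, a mitochondrial protein needed for thermogenesis, by 1.04 (SE 0.12). The 2 lower members were the coactivator Ppargc1b (-0.30) and the phosphodiesterase Pde3b (-0.43). The 9 members not past the threshold were Nr4a1, Prdm16, Cidea, Adrb1, Adrb3, Cox7a1, Zfp516, Irf4 and Esrrg. Of these, Nr4a1 is named by the study among the acutely induced genes.

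Genes of heat-producing cycles other than uncoupling went both ways, with 5 of 13 higher and 3 lower. Ckb, the creatine kinase of the futile creatine cycle, was at 52.6, 38.1, 57.9, 73.5 and 66.7 CPM in the controls and 669, 949, 919.9, 604 and 817 CPM in the cold mice. All cold mice were far above the controls (log2 fold change 3.76, SE 0.19, adjusted p = 5.10e-09). Alpl, the phosphatase that removes phosphate from phosphocreatine, changed by 2.75 (SE 0.20, adjusted p = 1.60e-07), and the calcium pump Atp2a2 by 0.79 (SE 0.14). The 3 lower members, named after their values were seen, were Gamt, which makes creatine (-1.18, SE 0.34), the creatine transporter Slc6a8 (-0.85, SE 0.31) and Pm20d1, which makes N-acyl amino acids (-0.82, SE 0.27). The calls of Slc6a8 and Pm20d1 were lost in 8 and 7 of the 10 fits without 1 mouse.

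Transfer RNA genes of the mitochondrial genome also stood among the largest rises, and this class was singled out after its values were seen. Of the 22 annotated mitochondrial tRNA genes, 13 had enough counts to be tested and all 13 were higher, with log2 fold changes of 2.66 to 4.78. Summed over the 22 genes, the controls were at 685, 518, 789.9, 424 and 248 CPM and the cold mice at 5275, 7214, 4291, 3359 and 5848 CPM. The lowest cold mouse was several times above the highest control. mt-Tc, the cysteine tRNA, changed by 4.78 (SE 0.38, adjusted p = 3.20e-07) and mt-Tl1, a leucine tRNA, by 4.03 (SE 0.28, adjusted p = 1.26e-07). The 13 protein-coding genes of the same genome summed to 112400, 115800, 133600, 127900 and 107400 CPM in the controls and 87990, 113000, 153200, 149200 and 151100 CPM in the cold mice, which overlapped, and 3 of the 8 tested were higher. That sum hardly covers mt-Co2, mt-Atp8, mt-Atp6, mt-Co3 and mt-Nd4l, which held 103, 51, 42, 21 and 29 reads over all 35 libraries. The tRNA genes mt-Td, mt-Tk and mt-Tg held 0 reads. The reason for these low counts was not tested. Both ribosomal RNA genes were not past the threshold (log2 fold changes 0.28 and 0.29), with sums of 226400, 249500, 232500, 241400 and 215500 CPM and 221000, 259400, 293900, 333500 and 328000 CPM. Without cold mouse 1, 13 tRNA genes and both ribosomal RNA genes were higher, and with library size alone 13 were higher as well. The tRNA genes abut other mitochondrial genes, mt-Tl2 also overlaps mt-Ts2, and how reads that span a boundary were assigned was not tested. The kit is made for the 3′ ends of mRNA. Whether reads at these genes come from mature tRNAs or from longer transcripts was not tested, so the values are not tRNA levels. None of the 13 was called between 2 days and 1 day of cold, when the sums were 5221, 8186, 2861, 5564 and 8676 CPM.

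**Figure D2:**
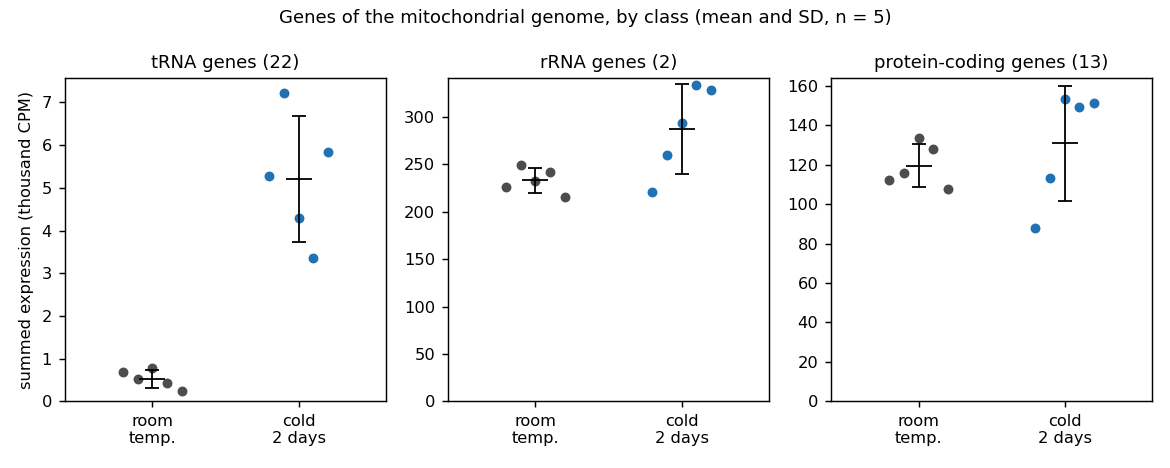
Summed expression of the genes of the mitochondrial genome (vertical axes in 1000 CPM, starting at 0) for tRNA, ribosomal RNA and protein-coding genes in 5 room temperature mice (grey) and 5 mice after 2 days of cold (blue), with mean and SD. The groups are apart for the tRNA genes and overlap for the other classes.

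Of 23 tested genes of cholesterol synthesis and sterol control, 16 were higher and 1 lower, and the median log2 fold change was 1.17, beside 16.4% and 14.7% of all genes, and 15 were higher with library size alone. Insig1, which holds back the sterol-regulated transcription factors, was at 47.7, 30.9, 46.3, 30.3 and 34.3 CPM in the controls and 95.9, 154, 142, 95.7 and 129.5 CPM in the cold. All cold mice were above all controls, and the change was 1.69 (SE 0.17, adjusted p = 2.25e-06). In the order of the pathway, Hmgcs1, the synthase whose promoter is printed above, changed by 0.95 (SE 0.14), squalene epoxidase Sqle by 2.38 (SE 0.32) and the methylsterol oxidase Msmo1 by 1.17 (SE 0.14). The lower gene was Fdft1, squalene synthase, which went from 17.9, 22.7, 24.0, 25.4 and 26.2 CPM to 2.42, 3.04, 4.12, 11.8 and 3.42 CPM, a change of -2.29 (SE 0.31, adjusted p = 4.97e-05). Its exons overlap those of Ctsb on the other strand, and since the strand setting of the counting is not given in the sources used here, reads of the 2 genes may not be separable. The cholesterol exporter Abca1 was at -0.15 (SE 0.14, adjusted p = 0.472).

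Of 19 tested genes of fatty acid synthesis and desaturation, 5 were higher and 1 lower, a share near the 31.2% of all genes. The elongases Elovl6 (2.02, SE 0.24) and Elovl5 (0.75, SE 0.15), the desaturase Scd2 (2.19, SE 0.21) and the acetyl-CoA carboxylase Acacb (0.47, SE 0.13) were higher besides Elovl3, whereas the main adipocyte desaturase Scd1 was lower (-1.10, SE 0.23, adjusted p = 0.00181). Fasn, fatty acid synthase, was at 3305, 422, 2267, 1491 and 1164 CPM in the controls and 789, 1396, 1443, 3524 and 3289 CPM in the cold mice. Its groups overlapped across nearly their whole ranges, with mice 4 and 5 high in the cold group and mouse 1 low (log2 fold change 0.27, SE 0.45, adjusted p = 0.688).

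Genes of fatty acid uptake and storage were next examined, beside 16.4% of all genes higher and 14.7% lower. Of 18 genes of the lipoprotein lipase system and fatty acid uptake, 8 were higher, among them Lpl, which frees fatty acids from lipoproteins (1.04, SE 0.13, adjusted p = 2.36e-05), and 3 lower, among them its inhibitor Angptl4 (-1.43, SE 0.16) and Apoe (-1.63, SE 0.16). Of 13 triglyceride synthesis genes, 6 were higher, such as the acyltransferases Gpam (0.89, SE 0.14) and Dgat1 (1.03, SE 0.13), and only Dgat2, which catalyses the same last step, was lower (-0.75, SE 0.23). The lipid droplet coats also parted, with Plin2 at 1.69 (SE 0.16) and Plin4 at -1.05 (SE 0.15), in a list with 5 of 16 higher and 3 lower. Monoglyceride lipase Mgll was higher (0.99, SE 0.15), and adipose triglyceride lipase Pnpla2 was at -0.29 (SE 0.17, adjusted p = 0.216).

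Of 24 tested genes of mitochondrial fatty acid oxidation, 4 were higher and 4 lower, beside 31.2% of all genes called, and without cold mouse 1 these were 7 and 4. Acsl5, which activates fatty acids with coenzyme A, was at 84.3, 28.4, 56.8, 46.0 and 32.9 CPM in the controls and 246, 331, 438, 508 and 524 CPM in the cold. All cold mice were well above the controls, with mouse 1 lowest (log2 fold change 3.03, SE 0.27, adjusted p = 1.13e-06). Cpt2, of the carnitine shuttle, was at 212, 319.9, 309.5, 342 and 348 CPM in the cold mice, and the first of them lay within the control range of 153 to 214 CPM (log2 fold change 0.79, SE 0.14, adjusted p = 5.43e-04). Acaa2, the thiolase of the last step, was lower (-0.80, SE 0.14), as was the acyl-CoA dehydrogenase Acad12 (-1.45, SE 0.16). Among peroxisomal genes, 6 of 23 were higher and 4 lower, beside 16.4% and 14.7% of all genes. The bifunctional enzyme Ehhadh was at 2.10 (SE 0.28) and the transporter Abcd2 at -2.18 (SE 0.23). Of 9 acyl-CoA thioesterases, which release fatty acids from coenzyme A, 5 were higher and 0 lower, including Acot11 (1.53, SE 0.31), Acot1 (1.39, SE 0.39), Acot8 (1.38, SE 0.17) and Acot2 (0.63, SE 0.17). With library size alone, the split became 3 higher and 8 lower for mitochondrial oxidation, 3 and 8 for the peroxisomal list, 3 and 2 for the thioesterases, 5 and 5 for the lipoprotein lipase list and 2 and 9 for lipolysis and droplet coats.

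**Figure D3:**
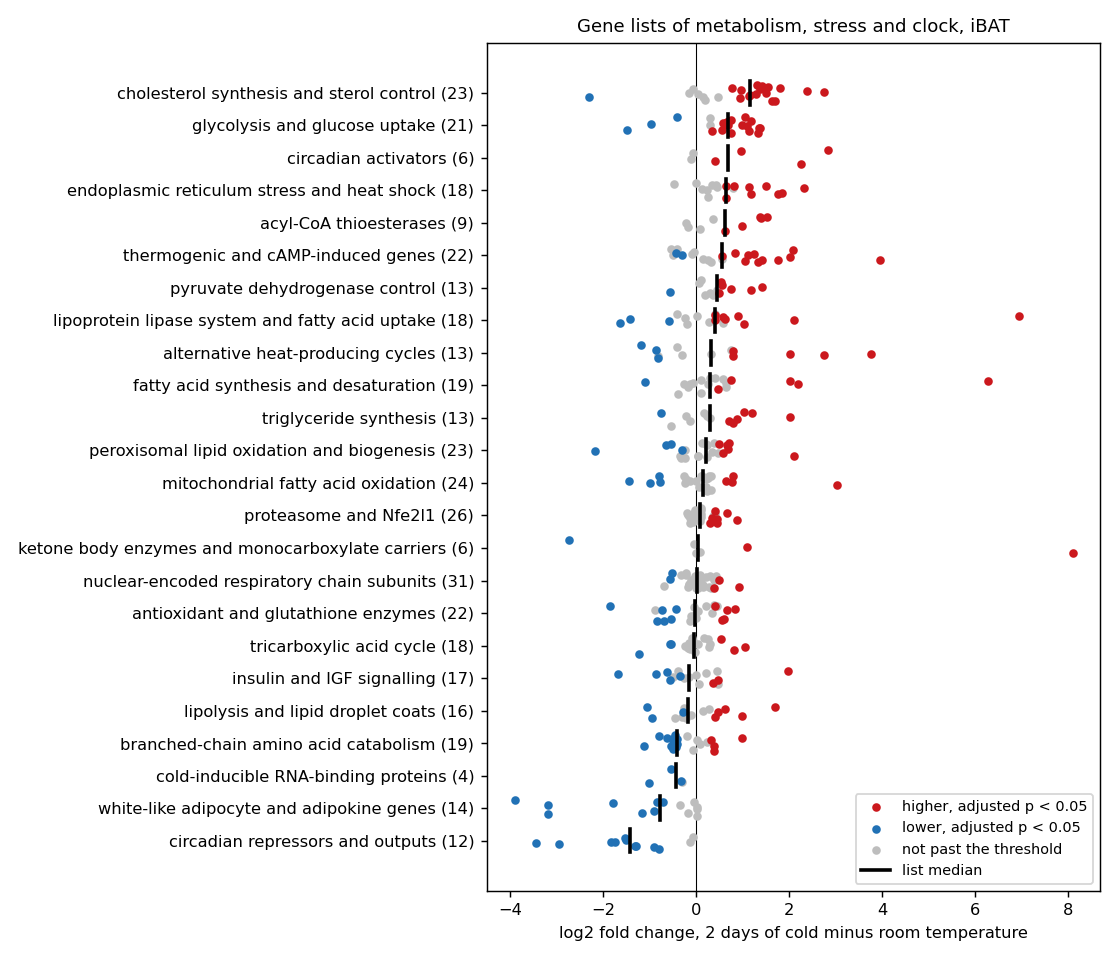
log2 fold change of 2 days of cold minus room temperature (horizontal axis) for the tested members of 24 gene lists, ordered by their median. Red and blue points are genes higher or lower at an adjusted p below 0.05, grey points did not pass, black bars are list medians and the number tested is in parentheses. The cholesterol list lies furthest to the right (median 1.17) and the list of clock repressors and outputs furthest to the left (median -1.41).

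Of 21 tested genes of glycolysis and glucose uptake, 16 were higher and 3 lower, and the median log2 fold change was 0.695. The phosphofructokinases Pfkp (1.37, SE 0.16) and Pfkl (1.14, SE 0.19), phosphoglycerate kinase Pgk1 (1.34, SE 0.22) and the lactate carrier Slc16a1 (1.11, SE 0.16) were among those that rose. The 3 lower genes, named after their values were seen, were the muscle-type isozymes Pfkm (-0.96, SE 0.18) and Eno3 (-1.49, SE 0.41) and the bifunctional Pfkfb1 (-0.42, SE 0.13). Beside them, the summed skeletal muscle markers ran from 199.2 to 1975 CPM in the controls and from 140.7 to 807.1 CPM in the cold mice, and their part in these falls was not tested. With library size alone, 10 of the list were higher and 3 lower.

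Of 13 tested genes of pyruvate dehydrogenase control, 6 were higher and 1 lower, and without cold mouse 1 these were 10 and 1. Pdk4, a kinase that switches off pyruvate dehydrogenase, was at 169, 178, 74.7, 106 and 130.4 CPM in the controls and 445, 406, 389, 218 and 331 CPM in the cold, with no overlap (log2 fold change 1.42, SE 0.22, adjusted p = 1.70e-04). The pyruvate carrier subunit Mpc2 was at 1.19 (SE 0.20), and the complex subunits Pdhx (0.57, SE 0.11) and Dld (0.55, SE 0.11) were higher too, whereas pyruvate carboxylase Pcx was lower (-0.56, SE 0.12). Pdp2, a phosphatase that reverses the kinases, was also called higher, and the kinases Pdk1 and Pdk2 and the core subunits Pdha1, Pdhb and Dlat did not pass. In the tricarboxylic acid cycle 3 of 18 genes were higher and 3 lower, a share near the 31.2% of all genes. The NAD-linked isocitrate dehydrogenase subunit Idh3a rose from 1299, 1111, 1495, 1174 and 1076 CPM to 2211, 2602, 2601, 2706 and 2783 CPM. The NADP-linked enzyme Idh2 went the other way, from 259.5, 271, 312, 343 and 331 CPM to 116, 98.0, 131, 208 and 106 CPM. In neither gene did the groups overlap, and the changes were 1.05 (SE 0.12, adjusted p = 1.18e-05) and -1.22 (SE 0.18, adjusted p = 1.05e-04).

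Of 31 nuclear subunits of the respiratory chain, 3 were higher and 2 lower, a smaller share than the 31.2% of all genes, with a median of 0.03. Cytochrome c, Cycs, was higher (0.92, SE 0.10, adjusted p = 9.00e-06), as were Cyc1 (0.39, SE 0.11) and Uqcrc2 (0.49, SE 0.16), and Ndufb3 (-0.51, SE 0.14) and Cox8b (-0.55, SE 0.20) were lower. The calls of Uqcrc2 and Cox8b were lost in 7 and 8 of the 10 fits without 1 mouse. Cold mouse 1 had the lowest sum of this list, 16220 CPM against 20980 to 24640 CPM in the other cold mice and 19670 to 21990 CPM in the controls, and without it 8 genes were higher and 2 lower. With library size alone 1 was higher and 10 were lower. For the tricarboxylic acid cycle those counts were 6 and 3 without mouse 1, and 2 and 9 with library size alone.

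Of 19 tested genes of branched-chain amino acid catabolism, 10 were lower and 4 higher (median -0.40). Aldh6a1, of valine breakdown, was at 188, 202, 204, 232 and 228 CPM in the controls and 73.1, 84.7, 111, 128 and 97.3 CPM in the cold, without overlap (-1.11, SE 0.14, adjusted p = 2.81e-05). Auh of leucine breakdown (-0.62, SE 0.13) and Acadsb of isoleucine breakdown (-0.50, SE 0.13) were lower as well. Dbt, a core subunit of the branched-chain ketoacid dehydrogenase, was higher (1.00, SE 0.12, adjusted p = 1.98e-05), with its partner Bckdhb (0.33) and the mitochondrial carrier Slc25a44 (0.38). Without cold mouse 1, 6 were lower and 5 higher, and with library size alone 11 were lower and 1 higher.

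In a list of endoplasmic reticulum stress and heat shock genes, 9 of 18 were higher and 0 lower, with a median of 0.65. Without cold mouse 1 these were 9 and 1, with a median of 0.43, and with library size alone 8 and 1. The chaperone Hsph1 was at 7.62, 14.1, 10.0, 7.83 and 8.44 CPM in the controls and 84.6, 29.5, 44.8, 39.2 and 42.8 CPM in the cold mice, and Hsp90aa1 at 71.3, 86.0, 61.4, 49.4 and 43.6 CPM and 377, 181, 189.8, 178 and 211 CPM. Both were highest in cold mouse 1, and the other 4 cold mice were still above all controls (log2 fold changes 2.33, SE 0.26, and 1.85, SE 0.22). Manf, a secreted factor of the endoplasmic reticulum (1.77, SE 0.20), and the lectin chaperone Calr (1.14, SE 0.14) were higher too. Of 26 proteasome genes including their activator Nfe2l1, 7 were higher and 0 lower, beside 16.4% and 14.7% of all genes. The share called in either direction was near the 31.2% of all genes. The ATPase subunits Psmc4 (0.89, SE 0.13) and Psmc2 (0.66, SE 0.10) led, but the list median was 0.09 and library size alone gave 2 higher and 6 lower. The antioxidant list had 5 of 22 higher, such as the thioredoxin reductase Txnrd1 (0.84, SE 0.10) and the peroxiredoxin Prdx1 (0.66, SE 0.11), and 6 lower, such as the glutathione peroxidases Gpx3 (-1.84, SE 0.21) and Gpx4 (-0.73, SE 0.13).

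The molecular clock is a loop in which Clock and Arntl (Bmal1) drive the genes of their own repressors and of output factors such as Dbp and Tef. The output factors bind D-boxes, which Nfil3 occupies as a repressor. A list of 12 repressor and output genes left out the repressors Cry1 and Nfil3, which were higher, and in it 10 were lower and 0 higher after 2 days of cold, with a median log2 fold change of -1.41. Dbp was at 72.1, 48.8, 85.6, 83.1 and 94.5 CPM in the controls and 10.7, 3.74, 6.27, 4.62 and 9.70 CPM in the cold, and Per3, whose promoter window with 2 D-boxes is printed above, at 63.9, 45.0, 71.4, 81.2 and 97.5 CPM and 13.3, 6.08, 9.32, 8.47 and 8.56 CPM. Each cold mouse was far below each control for both genes (-3.44, SE 0.25, adjusted p = 1.26e-07, and -2.96, SE 0.22, adjusted p = 1.60e-07). Tef (-1.84, SE 0.15) and the nuclear receptor Nr1d2 (-1.32, SE 0.16) were lower too. The members not past the threshold were Per1 (-0.13, SE 0.25, adjusted p = 0.739) and Bhlhe40 (-0.07, SE 0.33, adjusted p = 0.899).

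A second list held the activators together with Nfil3 and Cry1, and 4 of its 6 tested genes were higher and 0 lower. Arntl was at 1.14, 1.14, 1.31, 1.47 and 2.16 CPM in the controls and 6.35, 15.0, 13.1, 9.24 and 10.3 CPM in the cold mice, with mouse 1 lowest of the cold group (2.85, SE 0.29, adjusted p = 3.58e-06). Nfil3 was at 5.34, 2.67, 4.15, 3.26 and 2.87 CPM in the controls and 18.9, 17.1, 20.1, 17.2 and 14.8 CPM in the cold, again without overlap (2.26, SE 0.20, adjusted p = 7.04e-07). Cry1 (0.96, SE 0.20) and Clock (0.40, SE 0.11) rose less, and Clock was not past the threshold with library size alone. With that scaling 3 genes of this list, Arntl, Nfil3 and Cry1, were higher, and 10 of the other list were lower. The hour at which the mice of each group were killed is not given in the sources used here, and its part in these values was not tested. Cirbp, an RNA-binding protein induced by mild cold in cultured cells, was at 15.6, 12.2, 14.8, 18.9 and 14.4 CPM in the controls and 5.14, 7.49, 7.17, 12.8 and 5.71 CPM in the cold, which overlapped in 1 mouse (-1.02, SE 0.22, adjusted p = 0.00268), and its relative Rbm3 was at -0.30 (SE 0.31, adjusted p = 0.497).

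A list of adipokines and genes linked to white-like, lipid-storing adipocytes had members lower or not past the threshold. The list is not particular to white fat. Adipoq, Fabp4 and Pparg are also among the brown adipocyte markers below, and the study uses Car3 and Nnat as markers of early brown adipocyte differentiation. Of 14 tested, 8 were lower and 0 higher (median -0.77), and with library size alone 9 were lower. Lep, which encodes leptin, was at 6.10, 3.24, 21.0, 10.6 and 18.7 CPM in the controls and 1.36, 1.87, 0.896, 1.28 and 1.14 CPM in the cold (-3.18, SE 0.48, adjusted p = 1.21e-04). Adiponectin, Adipoq, was at 803, 855, 1048, 916 and 833 CPM in the controls and 248, 357, 410.3, 583 and 407 CPM in the cold (-1.16, SE 0.18, adjusted p = 1.34e-04). The groups did not overlap in either gene. Cfd, which encodes adipsin (-1.79, SE 0.24), the transcription factor Cebpa (-0.83, SE 0.11) and Nnat, a small membrane protein of the endoplasmic reticulum (-3.19, SE 0.41), were lower as well. White fat next to the pad was trimmed away before freezing, and the part of any that remained in these values was not tested. The brown adipocyte markers summed to 13890 to 17530 CPM in the controls and 15550 to 22060 CPM in the cold mice, with Ucp1 and Ppargc1a higher, Adipoq and Cox8b lower and 6 of 10 not past the threshold, among them Cox7a1 (0.32, SE 0.16, adjusted p = 0.141), which was called higher without cold mouse 1 (0.45, adjusted p = 0.00582).

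In insulin and IGF signalling 3 of 17 genes were higher and 5 lower, beside 16.4% and 14.7% of all genes. Without cold mouse 1 these were 5 and 6, and with library size alone 1 and 6. Pik3r1, the regulatory subunit of phosphoinositide 3-kinase, was at 176, 212, 214, 153 and 167 CPM in the controls and 55.1, 58.5, 62.9, 71.6 and 41.4 CPM in the cold, without overlap (-1.68, SE 0.14, adjusted p = 6.11e-07). The insulin receptor Insr was higher (0.47, SE 0.10) but not past the threshold with library size alone. The binding protein Igfbp3 was higher (1.97, SE 0.24) and Igfbp5 lower (-0.63, SE 0.13).

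The endothelial and angiogenesis list had 6 of 19 higher and 5 lower, beside 16.4% and 14.7% of all genes, and 3 and 6 with library size alone. Vegfb, a vascular growth factor of oxidative tissues, ranged from 127 to 143 CPM in the controls and from 51 to 64.2 CPM in the cold, and Angpt1, a stabilizing ligand of endothelium, was at 38.7, 44.0, 56.1, 45.2 and 49.6 CPM in the controls and 11.3, 10.1, 11.8, 19.0 and 12.0 CPM in the cold. All cold mice were below all controls for both (-1.24, SE 0.10, adjusted p = 4.98e-07, and -1.89, SE 0.16, adjusted p = 7.58e-07). Vegfa was at -0.15 (SE 0.13, adjusted p = 0.389). Eng, a co-receptor on endothelium, was higher (1.54, SE 0.18, adjusted p = 1.14e-05). Of 9 mural cell markers, 3 were higher and 0 lower, beside 16.4% and 14.7% of all genes, with a share in either direction near their 31.2%. The higher markers were the contractile genes Tagln (1.23, SE 0.24) and Acta2 (0.83, SE 0.21) and the channel regulator Abcc9 (0.60, SE 0.14). Among collagens and matrix genes, 5 of 29 were higher and 4 lower, a share near the 31.2% of all genes, and without cold mouse 1 these were 5 and 7. The basement membrane chains Col4a1 (1.34, SE 0.18) and Col4a2 (1.26, SE 0.19), whose exons overlap each other on opposite strands, rose, while the fibrillar Col1a2 (-0.52, SE 0.24, adjusted p = 0.112) and Col3a1 (-0.35, SE 0.21, adjusted p = 0.234) did not pass, although Col1a2 was called lower without cold mouse 1 (-0.69, adjusted p = 0.038), and the protease inhibitor Timp3 (-0.96, SE 0.11) and the adhesion protein Svep1 (-2.22, SE 0.33) fell. Stromal cell markers had 2 of 15 higher and 2 lower, also a share near the 31.2% of all genes. The higher genes were Ly6a (0.86, SE 0.19) and the chemokine Cxcl14, and the lower ones the proteoglycan Dcn (-0.53, SE 0.14) and Nnat. In the list of Schwann cell and nerve growth genes, S100b, a neurotrophic factor that brown adipocytes also secrete, was higher (0.77, SE 0.19) and Nrg4, a ligand that promotes neurite growth (-0.71, SE 0.10), Mbp of myelin (-0.72, SE 0.24) and Ntrk3 were lower, of 8 tested.

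Proliferation and immune genes set the cold mice apart from one another. Lgals3, a galectin of phagocytic macrophages, was at 5.91, 4.19, 7.86, 3.91 and 10.4 CPM in the controls and 266, 152, 14.9, 8.21 and 27.4 CPM in the cold. Mice 1 and 2 were far above the controls, mice 3 and 5 moderately, and mouse 4 lay within the control range (3.85, SE 0.78, adjusted p = 0.0015), and the call held without mouse 1 (2.95, adjusted p = 0.00288). Gpnmb, a marker of lipid-associated macrophages, was at 2.48, 3.24, 3.71, 2.12 and 5.57 CPM in the controls and 84.1, 31.4, 1.07, 2.57 and 2.57 CPM in the cold, so that only mice 1 and 2 exceeded the controls. The call (2.86, SE 0.87, adjusted p = 0.0202) was lost without mouse 1 (1.43, adjusted p = 0.138) and also without control mouse 4. Top2a, a topoisomerase of dividing cells, was at 3.05, 1.91, 3.27, 2.77 and 5.21 CPM in the controls and 29.5, 19.4, 5.02, 1.80 and 5.14 CPM in the cold, with the same 2 mice high and mouse 4 below every control (1.92, SE 0.56, adjusted p = 0.0156). Without mouse 1 it was at 1.25 (adjusted p = 0.0662).

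The same order of mice was seen in several lists. Summed over 18 monocyte and chemokine genes, the controls were at 67.9 to 92.7 CPM and the cold mice at 376, 295, 135, 89.3 and 144 CPM, of which mice 1 and 2 were highest and mouse 4 was within the control range. Of the 7 tested, 6 were higher and 0 lower, among them Ccl6 (2.19, SE 0.51), Ccl9 (2.04, SE 0.50), Cxcl12 (0.95, SE 0.18) and Cxcl14 (1.03, SE 0.21), and 5 were higher without mouse 1. The 28 proliferation markers summed to 78.0 to 93.2 CPM in the controls and to 239, 190.0, 119, 84.7 and 119 CPM in the cold mice, and 2 of the 9 tested were higher, Top2a and the tubulin Tubb5 (0.96, SE 0.18), against 1 without mouse 1. Of 14 resident macrophage markers, 3 were higher and 1 lower, a share near the 31.2% of all genes, and without mouse 1 these were 0 and 1. Cd68 of macrophage lysosomes was among the 3 (1.99, SE 0.55, adjusted p = 0.0117; 1.22 and adjusted p = 0.0521 without mouse 1). The lipid-associated macrophage list had 8 of 14 higher and 1 lower, and without mouse 1 these were 6 and 1. It shares Lpl, Plin2, Fabp5, Ctsd and Apoe with adipocytes. Its sum of 8146 to 9592 CPM in the cold against 4803 to 5762 CPM in the controls had no such order. Itih4, a serum protein gene that is in none of the lists, had one of the widest spreads among the cold mice, at 66.4, 22.2, 1.25, 3.08 and 3.42 CPM against 0.381, 1.14, 6.55, 0.978 and 1.26 CPM in the controls.

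**Figure D4:**
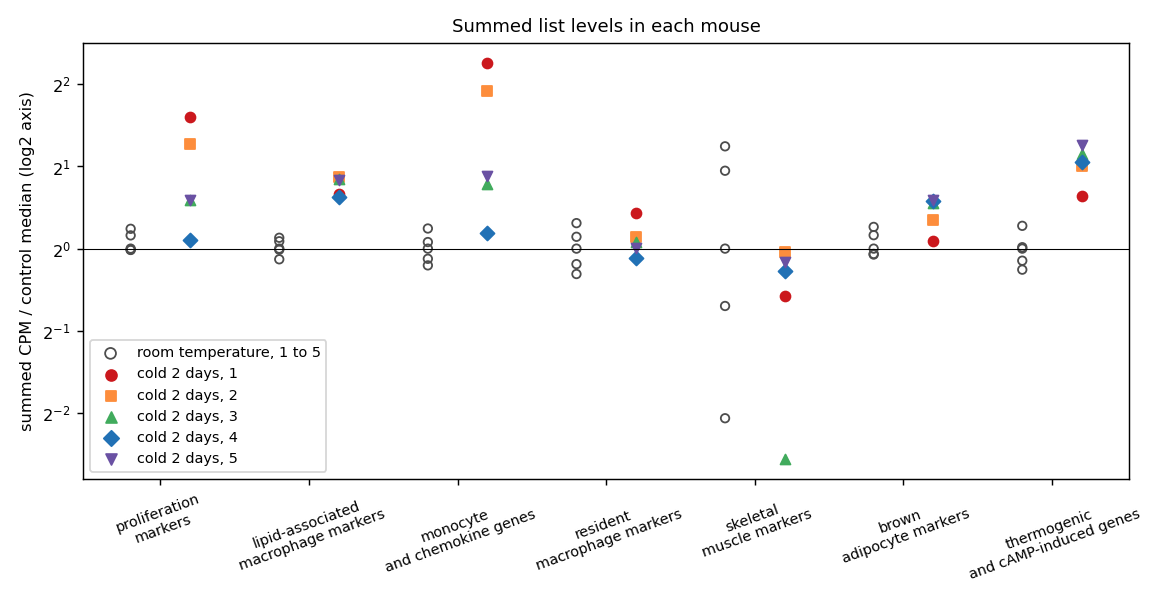
Summed CPM of 7 gene lists in each mouse, divided by the median of the 5 controls (vertical axis, log2 scale). Open circles are the controls and filled symbols the 5 cold mice, numbered 1 to 5. Mice 1 and 2 are highest for proliferation markers and for monocyte and chemokine genes, where mouse 4 sits among the controls, while mouse 1 is the lowest cold mouse for brown adipocyte markers and for thermogenic genes.

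Birc5, Mki67, Trem2 and Spp1 were too low for the fit. Birc5, a regulator of cell division, was at 3.33, 3.51, 0.896, 0 and 0.571 CPM in the cold mice and at most 0.815 CPM in the controls (difference in mean log2 CPM 1.11, exact two-sided permutation p = 0.119). The division marker Mki67 was at 12.2, 6.08, 0, 1.54 and 3.14 CPM in the cold and at most 1.14 CPM in the controls (1.18, exact permutation p = 0.206). Trem2, a receptor of lipid-associated macrophages, and the cytokine Spp1 reached 6.20 and 11.3 CPM in cold mouse 1 (differences 1.31 and 1.68, exact permutation p = 0.198 and 0.206). All 4 had an adjusted p of 0.206, and the smallest p that 5 against 5 mice allow is 0.00794. For each of the 4, mice 1 and 2 held the 2 highest values.

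Markers of other cells were checked in whole. Antigen-presenting genes showed 1 of 9 higher, Fscn1 of migratory dendritic cells (0.88, SE 0.30), whose call was lost in 6 of the 10 fits without 1 mouse, and 1 lower, H2-DMa (-1.26, SE 0.34), and H2-Aa was at -0.27 (SE 0.17, adjusted p = 0.255). Only 1 of 15 lymphocyte markers had enough counts to be tested. Skeletal muscle markers were present in both groups, and 2 of 15 were lower, Myh2 (-2.10, SE 0.71) and Myl1 (-0.68, SE 0.23). Ttn ranged from 36 to 529.6 CPM in the controls and from 2.69 to 203 CPM in the cold mice, with cold mouse 3 lowest. Myoglobin, Mb, was at 23.3, 1.72, 13.5, 11.9 and 7.54 CPM in the controls and 32.2, 57.1, 74.2, 105 and 30.2 CPM in the cold, the only muscle marker called higher (2.36, SE 0.44, adjusted p = 7.45e-04), and its exons overlap those of Apol6 on the other strand, which was lower (-2.24). None of 5 erythroid genes was called (2 of the 7 were too low), and Hba-a1 of hemoglobin stood out in cold mouse 1, at 1175, 295, 418, 350.4 and 336 CPM in the cold mice. The 8 epithelial markers summed to at most 0.572 CPM in any of the 10 libraries, with Krt14, Krt5 and Krt8 at 0 in all of them.

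Against the neighbouring times in the cold, few genes differed. Of 10274 genes tested against 1 day, 75 were higher (0.73%) and 55 lower (0.535%) at 2 days, 1.27% in all. Gmpr was at 5089, 3978, 3507, 4442 and 4869 CPM after 1 day and 1564, 1775, 2386, 1860 and 1433 CPM after 2 days. Every 2-day mouse lay below every 1-day mouse, which were different animals (-1.27, SE 0.16, adjusted p = 0.00125). The level at 2 days was still far above room temperature. Insig1 was at 31.4, 48.5, 47.6, 38.8 and 69.0 CPM after 1 day, below all values after 2 days (1.41, SE 0.19, adjusted p = 0.00151), and Scd2 and Pdk4 were also higher at 2 days than at 1 day (1.37, SE 0.26, and 1.20, SE 0.27). Top2a was higher as well (2.79, SE 0.62, adjusted p = 0.0354), through cold mice 1 and 2 above all, while Apoe was lower (-0.93, SE 0.15, adjusted p = 0.00534). Leaving out 1 mouse moved these counts to 131 higher and 75 lower without mouse 1 of the 2-day group and to 19 higher and 10 lower without mouse 1 of the 1-day group.

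Against 3 days, 15 of 10530 genes were called (0.142%), with 14 lower (0.133%) and 1 higher (0.0095%) at 2 days. The higher gene was Gmpr (0.88, SE 0.14, adjusted p = 0.0242). Of the 14 lower genes, 5 are interferon-stimulated genes of the list, which had 18 members tested. Lower genes outside that list included Lgals3bp, Cmpk2 and Trim25. Nnat (-2.31, SE 0.37, adjusted p = 0.0242) and Hlf, of the list of clock repressors and outputs (-1.08, SE 0.14, adjusted p = 0.00464), were lower as well. Rsad2, an antiviral enzyme, was at 50.1, 44.2, 56.3, 17.4 and 24.8 CPM after 2 days and 419, 93.4, 389, 455 and 58.3 CPM after 3 days (-2.87, SE 0.50, adjusted p = 0.039), and Isg15, a ubiquitin-like modifier, at 3.33, 3.74, 3.94, 1.03 and 3.14 CPM and 23.8, 8.47, 29.9, 36.7 and 4.62 CPM (-2.75, SE 0.48, adjusted p = 0.039). Mice 1, 3 and 4 of the 3-day group carried most of the rise. Irf7 (-2.92, SE 0.52) and Ifit3 (-3.08, SE 0.57) were lower at 2 days too. Against room temperature, 2 of 16 interferon-stimulated genes were higher at 2 days, Ifit2 (1.41, SE 0.41) and Ifi44 (1.09, SE 0.36), and 1 was lower, Gbp2 (-0.68, SE 0.21), while Rsad2 was at 0.65 (SE 0.25, adjusted p = 0.0627). The calls of Ifit2, Ifi44 and Gbp2 were each lost with all 7 groups in 1 fit and in some fits without 1 mouse. No gene was called higher, and none lower, at 2 days against room temperature, 1 day and 3 days at once. Without mouse 5 of the 3-day group 65 genes were lower than at 3 days, without its mouse 2 there were 47, and without its mouse 1 or 4 there were 2.

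**Figure D5:**
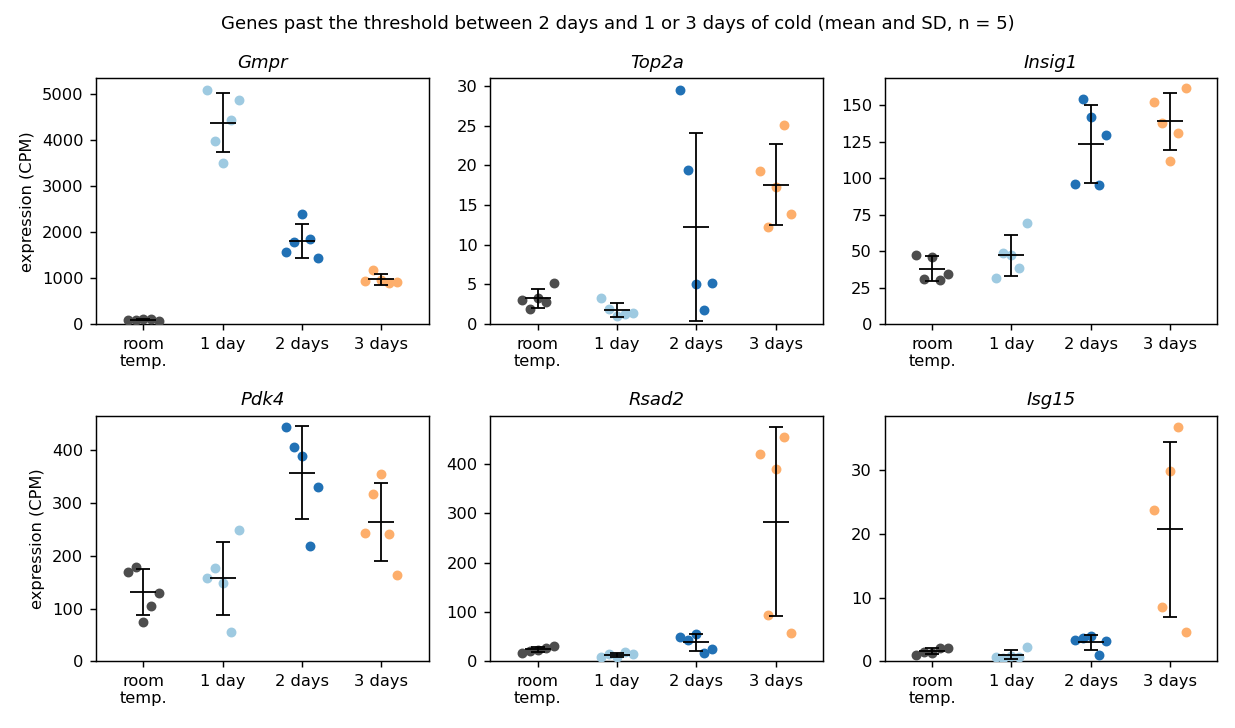
Expression in CPM (vertical axes, starting at 0) of 6 genes in 5 mice at room temperature and after 1, 2 and 3 days of cold. Points are mice and bars the mean and SD. Gmpr is highest after 1 day, Insig1 is higher from 2 days on, Top2a is high in 2 of the mice at 2 days, and Rsad2 and Isg15 are high in some mice at 3 days.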

How the data were processed

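Whole-tissue RNA of mouse interscapular brown adipose tissue was sequenced from the 3′ end, and the authors aligned the reads with STAR 2.6.1d and counted them per gene with HTSeq 0.11.2 on GRCm38, per the submitters' processing notes and the study's methods. The deposited values are raw counts per gene, without normalization. The strand setting of the counting and the treatment of reads shared by overlapping genes are not given in the sources used here. The 10 libraries used held 3913519 to 6031117 counts. The study states that the 5 replicates of a group are individual mice. Here 3′ counts without molecular identifiers are not independent molecules.

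Groups were taken from the labels. Genes with too few counts were removed with the default count filter of edgeR 4.0.16 (R 4.3.3), TMM factors were computed, and 2 days of cold was compared with room temperature, with 1 day and with 3 days by edgeR's quasi-likelihood test, each on the 10 libraries of its 2 groups. Genes at an adjusted p (Benjamini-Hochberg over all genes tested) below 0.05 were called. The fit was tested on simulated counts for the comparison with room temperature, where 88 of 100 genes changed by 1 on the log2 scale and 98 of 100 changed by 2 were recovered among 10515 genes, with 17 false calls. The simulation changed far fewer genes than were called in the data, equally in both directions and only among better-counted genes. It modelled no outlying mouse, so it cannot show how the fit performs under those conditions. Genes below the filter were compared by exact two-sided permutation of log2 CPM with a prior count of 2. Alternatives were DESeq2 1.42.0, limma 3.58.1 (voom with sample weights), other scalings and filters, all 7 groups in 1 fit, a replicate block and each mouse left out. The replicate numbers did not pair mice. Python 3.11.15 was used for tables and figures.

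The comparison, the gene lists and the tests were chosen with earlier results of these data known. Genes were named by rule: the 10 largest rises and falls described in the report, up to 4 called members of each list by adjusted p and up to 2 members not called by mean count, the 10 genes with the widest spread among the cold mice, and genes the study names. Another 18 genes were named after their values were seen, among them Gamt, Scd1, Fdft1, Dgat2, Pcx, Lep and the interferon genes against 3 days, as were second examples given with a value only. Promoter sequences are RefSeq's, and the mitochondrial sequences were read from GRCm38 at the annotated genes.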

Additional observations from a re-analysis of the deposited data

Results flagged for a closer look

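In 336 groups of 5 mice, 1 for each named gene in each group, 26 had 1 mouse whose distance to its nearest neighbour exceeded the critical share of 0.71 of the range, where chance flags about 1 in 20 groups. Values are CPM, with the range of the other 4 mice, and 6 of the 26 belong to cold mouse 1.

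In cold mouse 1, Cpt2 stood at 212 against 309.5 to 348, Slc16a1 stood at 356 against 491 to 537, Auh stood at 41.3 against 57.9 to 59.4, Hsph1 stood at 84.6 against 29.5 to 44.8, Hsp90aa1 stood at 377 against 178 to 211, Hba-a1 stood at 1175 against 295 to 418. In cold mouse 3, Tnnt3 stood at 0.717 against 42.7 to 58.0. In cold mouse 4, Acsm3 stood at 20.8 against 0.756 to 6.56, Gpx3 stood at 604 against 273 to 324, Angpt1 stood at 19.0 against 10.1 to 12.0, Fdft1 stood at 11.8 against 2.42 to 4.12, Isg15 stood at 1.03 against 3.14 to 3.94.

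In control mouse 1, Letmd1 stood at 395 against 277 to 292, Alpl stood at 5.72 against 3.24 to 3.59, Col1a2 stood at 339.7 against 162 to 202. In control mouse 2, Ccl9 stood at 1.33 against 3.10 to 3.59, Svep1 stood at 83.3 against 22.5 to 35.1. In control mouse 3, mt-Tl2 stood at 5.24 against 1.26 to 2.29, Itih4 stood at 6.55 against 0.381 to 1.26, Gamt stood at 6.11 against 2.69 to 3.24, Sqle stood at 0.437 against 1.14 to 1.33. In control mouse 4, H2-Aa stood at 47.6 against 35.1 to 38.1, Birc5 stood at 0.815 against 0.180 to 0.218. In control mouse 5, Plin4 stood at 221 against 296 to 306, Gbp2 stood at 31.3 against 16.9 to 19.9, Ifit3 stood at 9.88 against 2.29 to 4.15.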

How the results depend on the processing

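Scaling by library size alone changed the number of genes higher at 2 days than at room temperature from 1748 to 931 and of those lower from 1565 to 2776, and the other settings without a mouse left out stayed within 1.5 times. Leaving out each mouse gave 1462 to 1760 higher and 1277 to 1625 lower. Against 1 day, genes higher numbered 173 with DESeq2, 246 with all 7 groups in 1 fit, 137 with limma voom, 353 with no filter and 19 to 131 with a mouse left out, and genes lower 133, 135, 86, 165 and 10 to 75. Against 3 days, genes higher numbered 15 with DESeq2, 12 with all 7 groups, 48 with no filter and 0 to 6 with a mouse left out, and genes lower 66, 48, 193 and 2 to 65, with 8 at a CPM of at least 5, 4 with library size alone and 3 with limma voom. The cause of these shifts was not tested. The differences of Birc5, Mki67, Trem2 and Spp1 ranged over 0.767 to 1.58, 0.654 to 1.89, 0.797 to 1.63 and 0.941 to 2.15 with a mouse left out, and Mki67 passed only without cold mouse 3 by the exact permutation test.

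With the replicate number as a block, 1525 genes were higher and 1332 lower than at room temperature, 52 and 23 against 1 day, and 0 and 5 against 3 days. The correlation of same-numbered mice was -0.15 to 0.049, so the block pairs nothing but numbers.

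Direction turned only in genes not past the threshold: Fasn with library size alone (-0.017) and without cold mouse 4 (range with a mouse left out -0.0056 to 0.63), Bhlhe40 without cold mouse 1 or 2 or control mouse 5 (-0.42 to 0.13), Per1 without cold mouse 4 or 5 or control mouse 2 (-0.28 to 0.022), Hba-a1 with limma voom (-0.068) and without cold mouse 1 (-0.20 to 0.51), and Ifit3 without cold mouse 2 (-0.18 to 0.79). Leaving out 1 mouse at a time ended the call of Ifi44, Fscn1 and Myh2 in 6 fits each, of Myl1 and Mbp in 5, of Gbp2 in 4, of Dgat2 in 2 (without cold mouse 2 or 5) and of Pfkfb1 in 2 (without cold or control mouse 3). It also ended the call of Ifit2 without cold mouse 3, of Cyc1 without control mouse 2 and of Gpnmb without cold mouse 1 or control mouse 4. Myh2 and Slc6a8 were not called by DESeq2, and Pfkfb1 and H2-DMa not with no filter. With all 7 groups in 1 fit, Acot2, Eno3, Gbp2, H2-DMa, Ifi44 and Ifit2 were not called. Col1a2 was called lower with limma voom, no filter and the replicate block, and Cox7a1 higher with limma voom. Gpnmb and Top2a were not called with limma voom or with the replicate block. With library size alone Acot2, Cyc1, Uqcrc2, Clock, Insr, Fscn1, Ifi44 and Acacb were no longer past the threshold, and Pnpla2 (-0.55) and Vegfa (-0.40) were.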
